A study of Mus musculus with 12 samples.

Results

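The transcripts described here are those of 3 neuropeptide genes that mark the kisspeptin neurons of the arcuate nucleus (ARC), *Kiss1*, *Tac2* and *Pdyn*, with the neurokinin B receptor gene *Tacr3* and the sex steroid receptor genes *Esr1* and *Pgr*. They were chosen by gene symbol and are 6 of the 38283 genes in the deposited table. Each symbol had 1 row, and each of the 6 genes was above 0 in all 12 libraries and passed the filter on low values. The mice were WT or homozygous for the R299Q γ2 AMPK knockin allele (Homo), on a C57BL/6 background, male, freely fed and 8 weeks old. The mutation is carried by every cell of the animal, and the ARC was cut by laser from 14 µm brain sections, so each of the 5 WT and 7 Homo libraries holds the mixed RNA of neurons and glia from 1 mouse.

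Kisspeptin neurons of the ARC are also called KNDy neurons, after kisspeptin, neurokinin B and dynorphin, which they release together. Kisspeptin acts on the neurons that release gonadotropin-releasing hormone (GnRH) and so drives the pituitary-gonadal axis. Neurokinin B, acting on its receptor on neighbouring KNDy neurons, excites the population, and dynorphin inhibits it. The neurons carry estrogen and progesterone receptors, and in the ARC sex steroids are known to lower *Kiss1* and *Tac2* transcripts. *Pdyn*, *Esr1*, *Pgr* and *Tacr3* are transcribed in other hypothalamic neurons as well, so in these libraries their level is not that of KNDy neurons alone.

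Levels are given in FPKM, which scales the fragments on a gene to its transcript length and to the mapped fragments of its library, so levels are per length. Differences between Homo and WT are on the log2(FPKM + 1) scale, positive where Homo was higher. They were tested across 14017 genes with limma, and called at a Benjamini-Hochberg adjusted p under 0.05. The libraries fell into 2 sets by the number of genes above 0. The 7 lower-detection libraries (WT 1, WT 2 and Homo 1 to 5) had 15742 to 16467 such genes, and the 5 higher-detection libraries (WT 3 to 5, Homo 6 and Homo 7) had 18141 to 18635. Neither the labels nor the paper names this division as a batch. The sample titles of Homo 6 and Homo 7 are worded in another order than those of Homo 1 to 5, with no reason given. Both are higher-detection libraries. The paper's caption for its ARC neuropeptide levels gives n = 5. *Prkag2*, the gene that carries the mutation, was at 7.73 to 24.0 FPKM over the libraries, and since the allele differs by a point mutation its level does not check the genotype.

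The 6 genes spanned a wide range of levels. *Tac2*, which encodes neurokinin B, had a mean of 179 FPKM over the 12 libraries and lay between the 95.1 and 97.9 percentile of the genes tested in each library. *Pdyn*, which encodes prodynorphin, followed at 35.1 FPKM, *Kiss1* at 29.2 FPKM and *Esr1*, which encodes estrogen receptor α, at 16.0 FPKM. *Pgr*, which encodes the progesterone receptor, and *Tacr3* were lowest, at 7.27 and 2.38 FPKM. *Tac2* exceeded *Pdyn* in 12 of 12 libraries, by 3.00 to 9.32 times, and *Esr1* exceeded *Pgr* in 12 of 12. *Pdyn* and *Kiss1* could not be ordered beyond their spread, since *Pdyn* was higher in 8 libraries and *Kiss1* in WT 2, Homo 1, Homo 3 and Homo 4. *Kiss1* was above *Esr1* in 10 libraries, the exceptions being WT 3 and Homo 7, and *Pgr* above *Tacr3* in 11, the exception being WT 2.

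**Figure D1:**
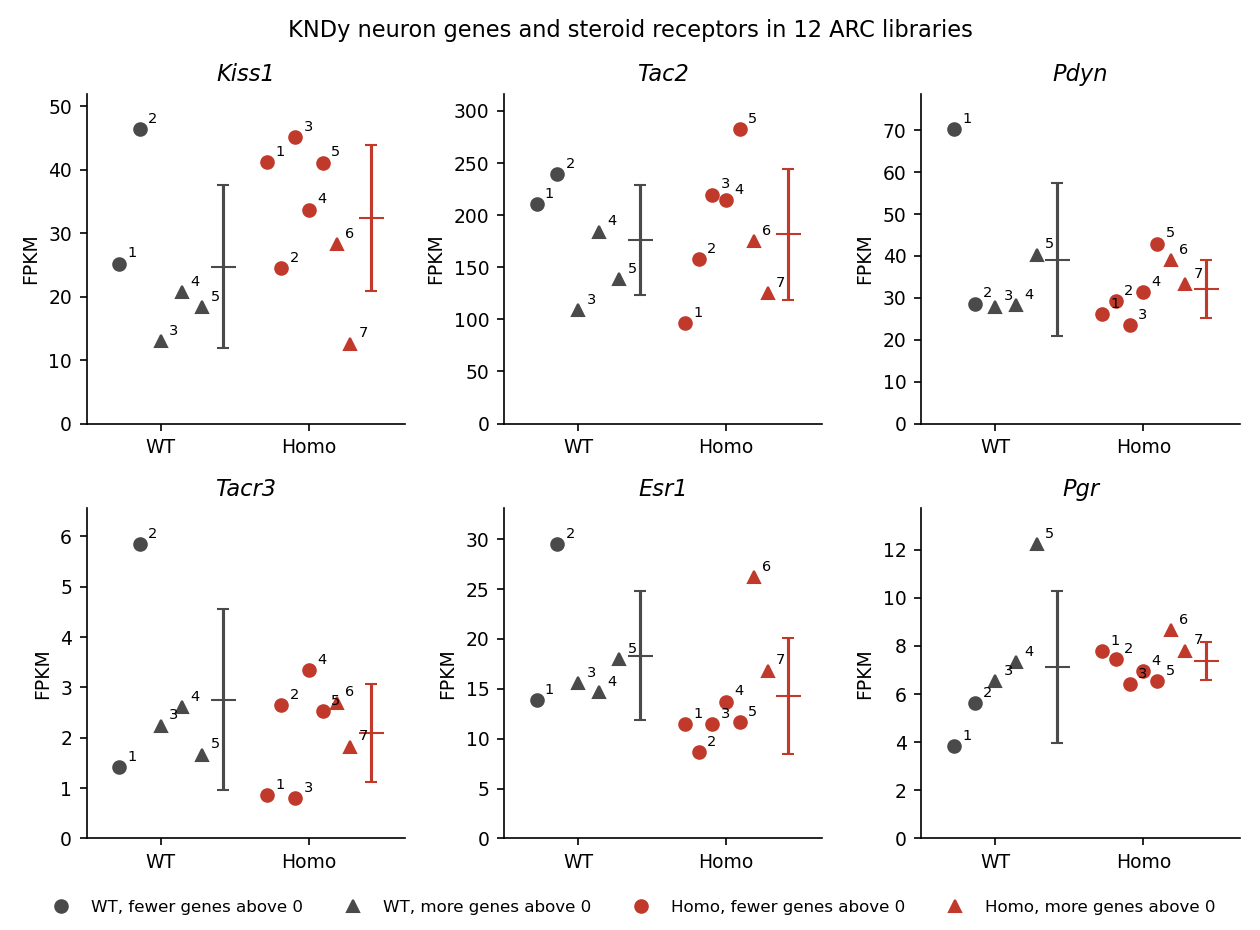
FPKM (linear axis from 0) of the 6 genes in each of the 12 ARC libraries, by genotype. Each point is 1 mouse with its replicate number, circles are lower-detection and triangles higher-detection libraries, and the bar beside each genotype is the mean ± SD (WT n = 5, Homo n = 7). The genotypes overlapped for every gene. *Pgr* lay within 6.40 to 8.66 FPKM in Homo against 3.83 to 12.2 FPKM in WT.

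*Kiss1* (ENSMUSG00000091251 in the table) lies on chromosome 1 of GRCm38 from 133321875 to 133329901, plus strand, in GENCODE release M21, where it has another identifier (ENSMUSG00000116158). Its annotated span overlaps *Golt1a* and the readthrough gene *Gm28040* on the same strand, so fragments could be divided among them. *Golt1a* was listed at 0 in 11 of the 12 libraries and at 0.154 FPKM in Homo 6. The WT libraries had 25.2, 46.4, 13.0, 20.8 and 18.3 FPKM of *Kiss1* in WT 1 to WT 5. The 7 Homo libraries ran from 12.6 FPKM in Homo 7 through a median of 33.7 to 45.2 FPKM in Homo 3. The genotypes overlapped almost completely at the extremes, although 6 of the 7 Homo libraries were above the WT median of 20.8 FPKM. Mean FPKM was 24.8 ± 12.9 in the 5 WT mice and 32.4 ± 11.5 in the 7 Homo mice (± SD), a difference of 0.40 (SE 0.33, 95% interval -0.31 to 1.11, limma adjusted p = 0.919). An exact two-sided permutation test of the same difference gave p = 0.301, where 792 arrangements allow a p as small as 0.0013. In tissue of mixed cells, a different number of KNDy neurons in the cut area and a different amount of transcript per neuron cannot be told apart.

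*Kiss1* was the member that differed most between the library sets. It averaged 36.8 ± 9.09 FPKM in the 7 lower-detection libraries and 18.6 ± 6.45 FPKM in the 5 higher-detection ones, a difference of -0.93 with genotype in the same model (unadjusted p = 0.0030, limma adjusted p = 0.291 over all genes). As 5 of the 7 Homo but 2 of the 5 WT libraries were of lower detection, genotype and set were unequally mixed. With both terms fitted, the Homo minus WT difference of *Kiss1* was 0.11 (exact permutation within the sets, p = 0.70). It was 0.083 among the lower-detection libraries alone and 0.15 among the others. Whether detection plays a part in the pooled difference was not tested beyond these values.

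*Tac2* (ENSMUSG00000025400, chromosome 10 from 127724478 to 127731768, plus strand) had 211, 239, 109, 184 and 138 FPKM in WT 1 to WT 5. In Homo it ran from 96.1 FPKM (Homo 1) through a median of 175 to 283 FPKM (Homo 5), so the Homo libraries held both the lowest and the highest value. Mean FPKM was 176 ± 52.9 in the 5 WT mice and 182 ± 63.1 in the 7 Homo mice (± SD), and the difference was 0.018 (SE 0.27, 95% interval -0.56 to 0.59, limma adjusted p = 0.995). The exact permutation test gave p = 0.948. The sign was not stable, and became negative at -0.13 when the library set was fitted too. An interval of this width does not show that the levels were equal.

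*Pdyn* (ENSMUSG00000027400, chromosome 2 from 129686565 to 129699844, minus strand) had 70.3, 28.6, 27.9, 28.3 and 40.3 FPKM in WT 1 to WT 5. WT 1 stood well above the rest. The Homo libraries ran from 23.6 FPKM (Homo 3) through a median of 31.4 to 42.9 FPKM (Homo 5), inside or just below the WT range, and 5 of 7 were above the WT median. Mean FPKM was 39.1 ± 18.2 in the 5 WT mice and 32.2 ± 6.89 in the 7 Homo mice (± SD), a difference of -0.20 (SE 0.24, 95% interval -0.72 to 0.32, limma adjusted p = 0.929). The exact permutation test gave p = 0.473. Without WT 1 the difference was 0.030, so its sign rested on that library. *Pdyn* is also made by vasopressin neurons, and the vasopressin transcript *Avp* varied from 0.916 FPKM (WT 4) to 380 FPKM (WT 5), with 17.5 FPKM in WT 1. The part of such neurons in the *Pdyn* values was not tested.

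The neurokinin B receptor gene *Tacr3* (ENSMUSG00000028172, chromosome 3 from 134829007 to 134934579, plus strand) had the least transcript. WT 1 to WT 5 had 1.41, 5.85, 2.24, 2.61 and 1.66 FPKM. The Homo libraries ran from 0.808 FPKM (Homo 3) through a median of 2.53 to 3.35 FPKM (Homo 4), and Homo 1 and Homo 3 were below every WT library. WT 2 was the only library above 3.35 FPKM. Mean FPKM was 2.76 ± 1.79 in the 5 WT mice and 2.10 ± 0.973 in the 7 Homo mice (± SD), a difference of -0.24 (SE 0.32, 95% interval -0.92 to 0.45, limma adjusted p = 0.942). The exact permutation test gave p = 0.481, and without WT 2 the difference was 0.0060. The table holds no counts. In the 7 libraries where the worth of 1 fragment could be read from the steps between low values, about 38.0 to 117 fragments lay behind each *Tacr3* value, against about 471 to 1424 behind each *Tac2* value. Those libraries were WT 3 to WT 5 and Homo 4 to Homo 7. No estimate covers the high value of WT 2 or the low values of Homo 1 and Homo 3.

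*Esr1* (ENSMUSG00000019768, chromosome 10 from 4611593 to 5005614, plus strand) was the member with the smallest p, and it too was not called. WT 1 to WT 5 had 13.9, 29.5, 15.5, 14.7 and 18.0 FPKM. The Homo libraries ran from 8.69 FPKM (Homo 2) through a median of 11.7 to 26.2 FPKM (Homo 6). Homo 1 to Homo 5 were all below the lowest WT library, while Homo 6 and Homo 7, at 26.2 and 16.8 FPKM, were above the WT median of 15.5 FPKM. Mean FPKM was 18.3 ± 6.46 in the 5 WT mice and 14.3 ± 5.82 in the 7 Homo mice (± SD), a difference of -0.36 (SE 0.26, 95% interval -0.92 to 0.20, unadjusted p = 0.193, limma adjusted p = 0.915). The exact permutation test gave p = 0.218.

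The division of the Homo libraries in *Esr1* ran along the library sets. Among the 7 lower-detection libraries the ranges did not overlap, as was so for 9.35% of the genes tested. WT had 13.9 and 29.5 FPKM and Homo 8.69 to 13.7 FPKM. The difference there was -0.79 (limma adjusted p = 0.839), and the exact permutation p = 0.0476 was the smallest that 21 arrangements allow. Among the 5 higher-detection libraries it was 0.37, as WT spanned 14.7 to 18.0 FPKM while Homo 7 and Homo 6 had 16.8 and 26.2 FPKM (exact permutation p = 0.30). The gap between the sets, 1.17 in a limma interaction term over all 12 libraries, had an adjusted p = 0.876 (0.026 before adjustment) and was not called. Without Homo 6 the pooled difference was -0.51 (unadjusted p = 0.047, limma adjusted p = 0.820), without Homo 6 and Homo 7 it was -0.60 (unadjusted p = 0.027, limma adjusted p = 0.674), and without WT 2 it was -0.18.

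*Pgr* (ENSMUSG00000031870, chromosome 9 from 8899833 to 8968611, plus strand) had 3.83, 5.63, 6.54, 7.33 and 12.2 FPKM in WT 1 to WT 5. The Homo libraries ran from 6.40 FPKM (Homo 3) through a median of 7.44 to 8.66 FPKM (Homo 6), and all 7 lay inside the WT range. Mean FPKM was 7.11 ± 3.15 in the 5 WT mice and 7.37 ± 0.799 in the 7 Homo mice (± SD), a difference of 0.12 (SE 0.23, 95% interval -0.37 to 0.61, limma adjusted p = 0.971; exact permutation p = 0.569). The spread was much narrower in Homo, with an SD on the log2 scale of 0.14 against 0.53 in WT, given here as a description with no test. In the lower-detection libraries *Pgr* did not overlap between genotypes either, as was so for 9.35% of the genes tested. WT had 3.83 and 5.63 FPKM and Homo 6.40 to 7.80 FPKM. The difference was 0.50, opposite in sign to that of *Esr1* (exact permutation p = 0.0476, again the smallest possible). In the higher-detection libraries the difference was -0.028.

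None of the 6 members was called between Homo and WT, where 1 of the 14017 genes tested was (0.00713%). Over the 12 libraries none reached an unadjusted p under 0.05 from limma, which 778 genes did (5.55%). None had ranges that did not overlap over the 12 libraries, against 0.221% of the genes tested. In the 7 lower-detection libraries, *Esr1* and *Pgr* had such ranges, as did 9.35% of the genes tested. Among the members 3 had a higher and 3 a lower mean log2 value in Homo, with a median difference of -0.092, beside a median of -0.0062 over all genes tested. The 95% intervals reached at most 1.11 upward, for *Kiss1*, and -0.92 downward, for *Tacr3* and *Esr1*.

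**Figure D2:**
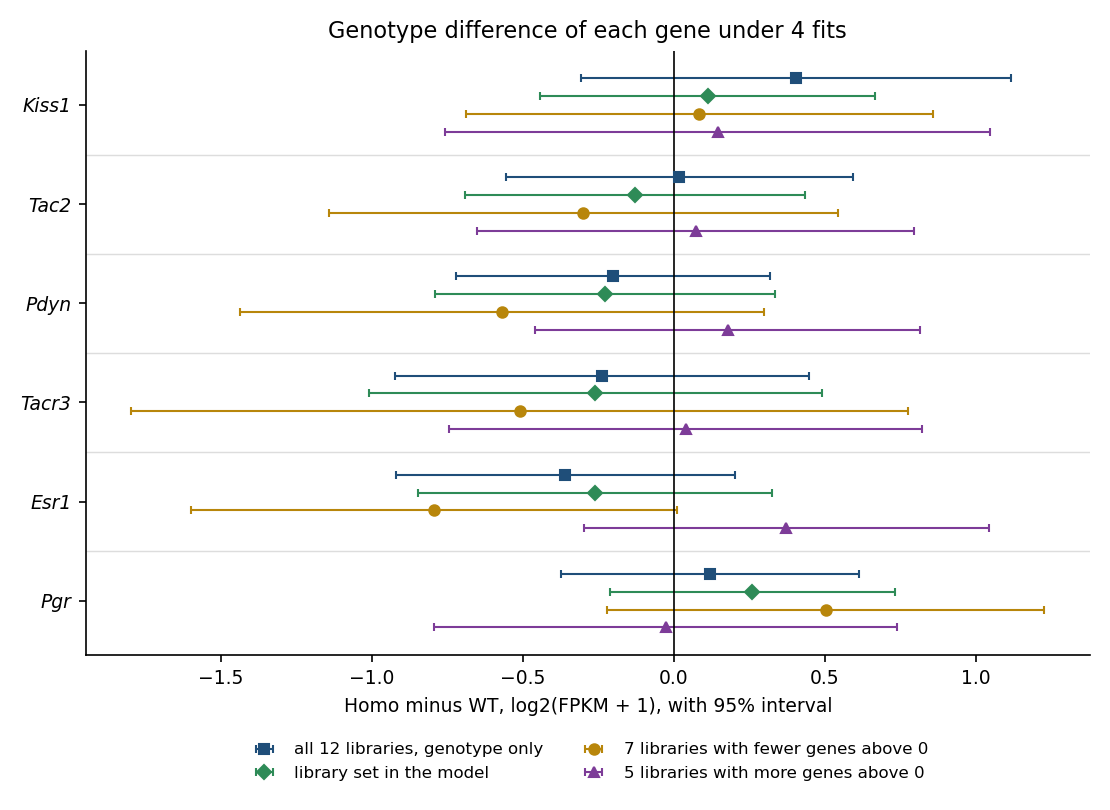
Homo minus WT difference of each gene (x axis, log2(FPKM + 1)) with its 95% interval from limma, from all 12 libraries, with the library set in the fit, and within each set. The intervals from all 12 libraries include 0 for each gene. *Esr1* is at -0.79 in the lower-detection and 0.37 in the higher-detection libraries, while *Kiss1* is at 0.40 from all libraries and at 0.11 once the set is fitted.

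The members differed in their spread between mice. The SD of log2(FPKM + 1) over the 12 libraries was 0.63 for *Kiss1*, which exceeded that of 65.1% of the genes tested, and 0.53 for *Tacr3*, which exceeded 51.4%. It was 0.48 for *Tac2*, 0.47 for *Esr1* and 0.42 for *Pdyn*, above 42.7%, 42.3% and 31.6% of the genes. *Pgr* varied least of the members, at 0.34, above 16.9%, and the median gene had 0.52.

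*Kiss1* and *Tac2* are made by the same ARC neurons, and their levels were compared across mice as 1 of 15 pairs of members. Over the 12 libraries Pearson's r was 0.568 (permutation p = 0.0555) and Spearman's rho 0.608 (permutation p = 0.0396). After Benjamini-Hochberg adjustment over the 15 pairs these were 0.556 and 0.382, and no pair passed 0.05. Without WT 3 and Homo 7, the libraries farthest from the *Kiss1* median, r was 0.306, so the relation rested in part on them. With the mean of each library set taken off, r over the 12 libraries was 0.371, given with no test. Within the 7 lower-detection libraries r was 0.144 (permutation p = 0.779), and the 5 others are too few for a value.

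The value turned on Homo 1, which had 41.2 FPKM of *Kiss1*, among the highest, with 96.1 FPKM of *Tac2*, the lowest of all libraries. Without it, a choice made after its values were seen, r was 0.914 and rho 0.918 over 11 libraries, and r was 0.722 over the 6 lower-detection libraries and 0.913 over the 6 Homo libraries left. These are descriptions, with no test. The ratio of *Tac2* to *Kiss1* FPKM was 8.37, 5.16, 8.39, 8.87 and 7.54 in WT 1 to WT 5. In Homo it ran from 2.34 (Homo 1) through a median of 6.36 to 9.93 (Homo 7), and 6 of the 7 were below the WT median. The ratio also differed with the library set, with a median of 6.36 in lower-detection and 8.39 in higher-detection libraries.

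**Figure D3:**
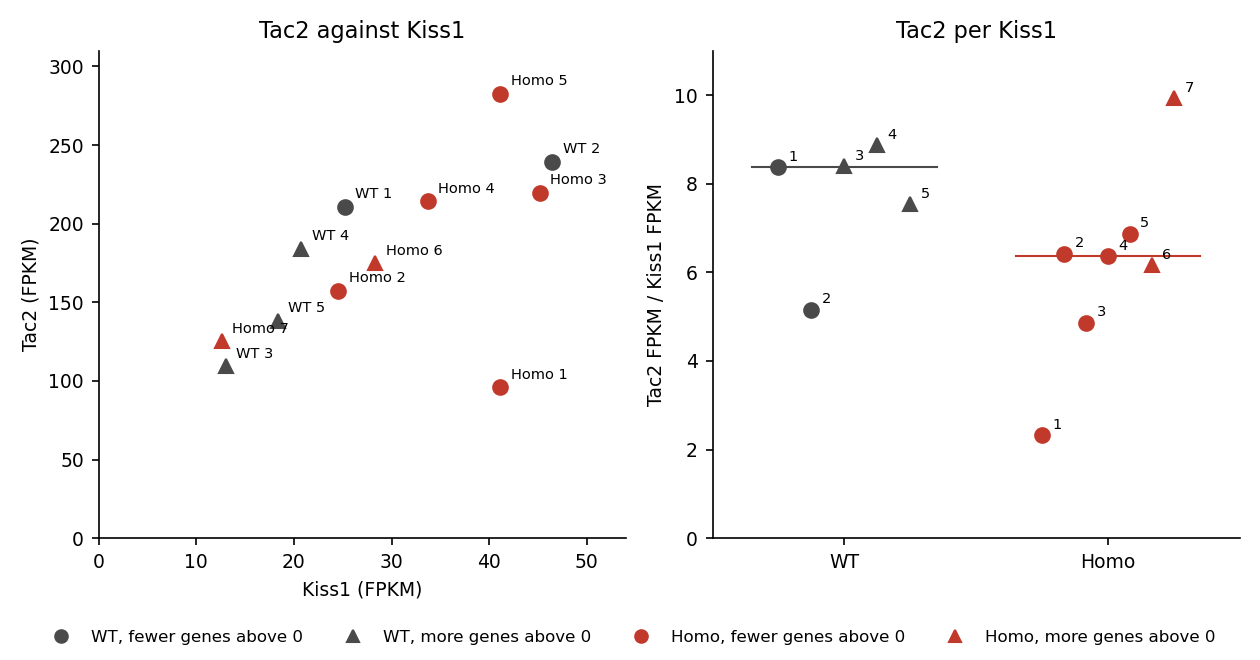
Left, *Tac2* (y axis, FPKM) against *Kiss1* (x axis, FPKM) in the 12 libraries. Right, the ratio of *Tac2* to *Kiss1* FPKM by genotype, with a line at each median (WT 8.37, Homo 6.36). Points are mice, colours genotypes and shapes library sets. Homo 1, at 41.2 FPKM of *Kiss1* and 96.1 FPKM of *Tac2*, lies apart from the other 11 libraries.

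The other pairs were less close. *Tacr3* and *Esr1* had r = 0.533 (permutation p = 0.0741; rho 0.371, permutation p = 0.238), which was 0.0979 without WT 2 and Homo 3. WT 2 was highest of all libraries for both. *Tac2* and *Pgr* had r = -0.442 (permutation p = 0.150; rho -0.580, permutation p = 0.0509), or -0.608 without WT 3 and Homo 1. For *Pdyn*, whose product is the third peptide of the same neurons, r with the other members lay between -0.310 and 0.293 over 12 libraries. These values moved when 2 libraries were left out. Without WT 1 and Homo 5, r of *Pdyn* was 0.758 with *Pgr*, 0.509 with *Esr1* and 0.249 with *Tacr3*. With *Tac2* it was 0.0667 without WT 3 and Homo 1, and with *Kiss1* -0.378 without WT 3 and Homo 7. Within the 7 lower-detection libraries r of *Pdyn* with *Pgr* was -0.793 (permutation p = 0.0583, 0.646 after adjustment).

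The genes most like each member in pattern over the 12 libraries, by Pearson's r of log2(FPKM + 1) among 14016 other genes, were other genes than the members. For *Kiss1* they were *Tmem179* (r = 0.927), *Ints1* (0.916) and *St3gal5* (0.902), and *Tac2* ranked 614th. For *Tac2* they were *Hint3* (0.920), *Elof1* (0.918) and *Nnat* (0.917), and for *Pdyn* they were *Rmnd5a* (0.974), *Rpgr* (0.918) and *Mkl2* (0.908). *Tacr3* was closest to *Zfp524* (0.933), *Ap1g2* (0.900) and *Prrt2* (0.864). *Esr1* was closest to *Map4k4* (0.906), *Pcdh11x* (0.898) and *Snx4* (0.895), and *Pgr* to *9130204K15Rik* (0.929) and *Zc3h14* (0.921). All genes of a library share its depth and detection. These values were picked as the highest of 14016 over only 12 libraries, and they carry no test.

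The stretches before the start sites of *Kiss1* and *Tac2* are shown because these were the members with the highest rank correlation and because estrogen receptor α is among the members. The sequences are from RefSeq on GRCm38.p6, plus strand, and cover the 250 bases before 1 annotated start of each gene, chr1:133326962-133327211 for *Kiss1* and chr10:127724228-127724477 for *Tac2*. Capitals mark matches on either strand to GGTCA, the core that occurs on both arms of the estrogen response element.
Kiss1: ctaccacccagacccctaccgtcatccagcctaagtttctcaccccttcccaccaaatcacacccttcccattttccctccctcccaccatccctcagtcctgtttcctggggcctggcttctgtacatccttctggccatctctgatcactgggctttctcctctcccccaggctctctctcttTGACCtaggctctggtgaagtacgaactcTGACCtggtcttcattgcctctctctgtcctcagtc
Tac2: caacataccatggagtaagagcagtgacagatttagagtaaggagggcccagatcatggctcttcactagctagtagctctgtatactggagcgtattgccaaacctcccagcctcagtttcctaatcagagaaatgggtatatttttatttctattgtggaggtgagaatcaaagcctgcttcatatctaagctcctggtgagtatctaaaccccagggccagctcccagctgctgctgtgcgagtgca
The *Kiss1* stretch holds 2 matches, both on the minus strand, whose first letters lie 65 and 36 bases before the start, and the *Tac2* stretch holds 0. The full element, GGTCA and its reverse complement TGACC set 3 bases apart, was in 0 of the 8 RefSeq promoter windows of the members (250 bases before to 50 after a start) and in 0.0700% of 32851 such mouse windows. The short motif was in windows of *Kiss1* and *Esr1*, and in 40.5% of all windows. The start used for *Kiss1* lies inside the gene's annotated span. These are matches of letters and say nothing of binding.

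The receptors and relatives of the peptides were read from a list of 9 genes, of which 7 passed the filter on low values. None was called and none reached an unadjusted p under 0.05, with 4 higher and 3 lower in Homo and a median difference of 0.022. *Kiss1r*, the kisspeptin receptor gene, did not pass the filter, at 0.120 to 1.90 FPKM in WT and 0 to 1.29 FPKM in Homo. *Oprk1*, which encodes the κ opioid receptor for dynorphin, averaged 4.31 ± 1.66 FPKM (SD) in the 5 WT mice and 4.30 ± 1.16 in the 7 Homo mice, a difference of 0.022 (95% interval -0.54 to 0.58, limma adjusted p = 0.995). *Tac1*, the substance P gene, had 19.9 ± 10.9 against 11.4 ± 6.04 FPKM, a difference of -0.72 (95% interval -1.59 to 0.16, limma adjusted p = 0.908). Its ranges overlapped, at 8.61 to 32.7 FPKM in WT and 5.02 to 20.3 FPKM in Homo. *Pnoc*, the nociceptin gene, was at 0.48 (95% interval -0.13 to 1.09, limma adjusted p = 0.915). *Penk*, the enkephalin gene, had 32.7 ± 14.8 against 39.5 ± 4.56 FPKM (difference 0.38, limma adjusted p = 0.915). The 7 Homo libraries, at 32.4 to 46.6 FPKM, lay inside the WT range of 13.4 to 54.7 FPKM.

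Of 17 genes of sex steroid action and synthesis, 15 passed the filter, 6 higher and 9 lower in Homo, and none was called or reached an unadjusted p under 0.05 (median difference -0.051). *Esr2*, the estrogen receptor β gene, did not exceed 0.687 FPKM in any library, and *Cyp19a1*, the aromatase gene, did not exceed 0.288 FPKM. *Pgrmc1*, which encodes a membrane protein named for progesterone binding, had the smallest p upward (0.37, 95% interval -0.074 to 0.81, limma adjusted p = 0.906). *Greb1*, an estrogen-responsive gene, had the smallest p downward (-0.34, 95% interval -1.20 to 0.51, limma adjusted p = 0.929).

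The GnRH axis list held 8 genes, of which 4 passed the filter and none was called or reached an unadjusted p under 0.05 (1 higher, 3 lower, median difference -0.14). *Gnrh1*, whose neurons are scattered outside the ARC and send fibres near it, varied from 0.795 to 26.1 FPKM, with 2.37 to 17.7 FPKM in WT and a difference of -0.18 (95% interval -1.80 to 1.45, limma adjusted p = 0.990). *Npffr1* and *Gal* had the smallest p downward and upward, at -0.37 (limma adjusted p = 0.919) and 0.36 (0.923). Among 10 genes chosen as features of kisspeptin neurons, 9 passed the filter. All 9 had a negative difference, with a median of -0.11, and none was called or reached an unadjusted p under 0.05. Of all genes tested, 49.3% had a positive difference. With the library set fitted, 7 of the 9 were negative, and under quantile normalization 8 of the 9 were. Of these, *Slc17a6*, the vesicular glutamate transporter gene, had the smallest p, with 13.4 ± 1.55 against 11.1 ± 2.81 FPKM (difference -0.29, 95% interval -0.75 to 0.17, limma adjusted p = 0.915). *Prlr*, the prolactin receptor gene, was at -0.10 (95% interval -0.63 to 0.42, limma adjusted p = 0.982).

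**Figure D4:**
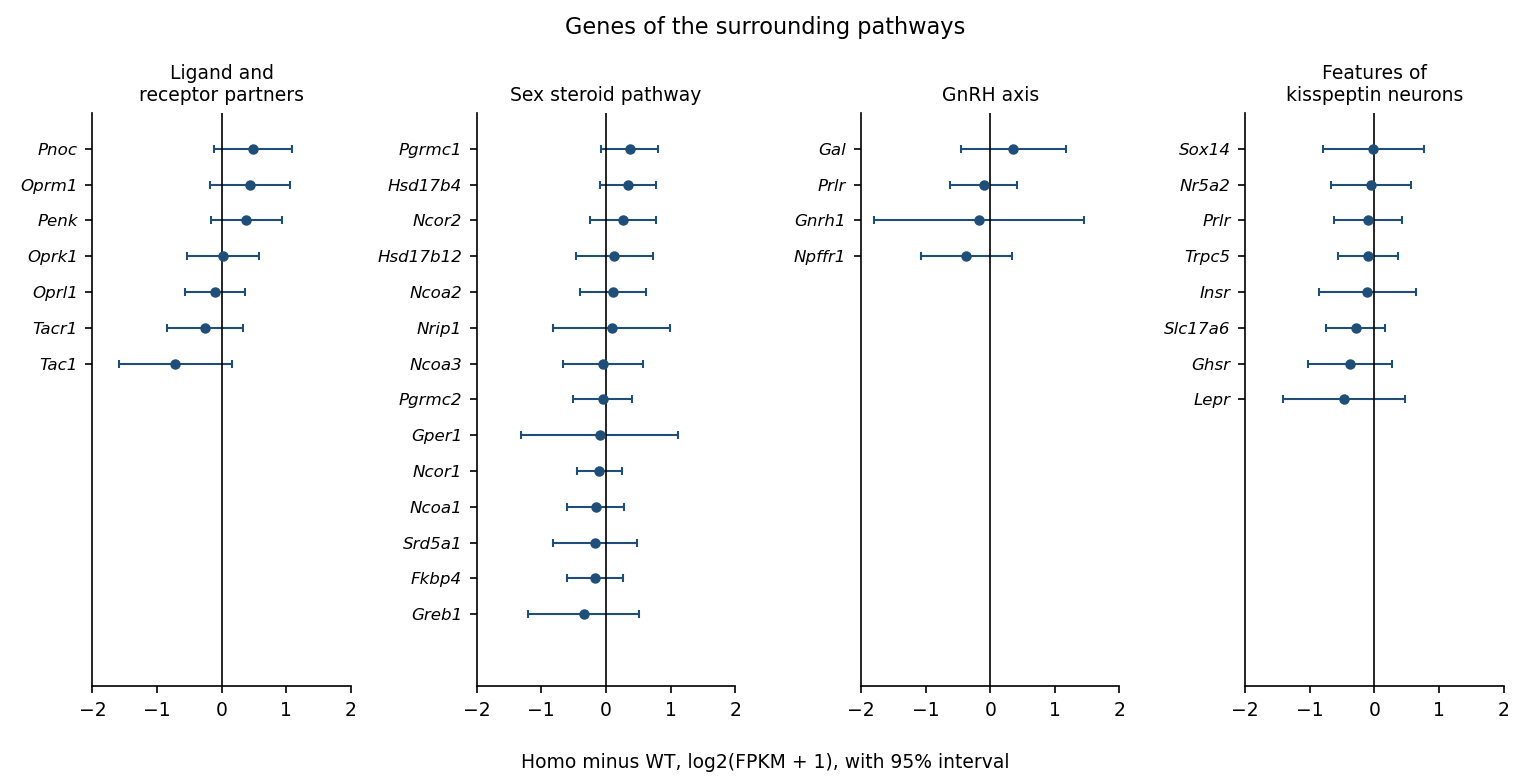
Homo minus WT difference (x axis, log2(FPKM + 1), limma estimate with its 95% interval) of genes that passed the filter in 4 lists around the KNDy genes. Each interval includes 0. The genes in the right panel all lie left of 0, from -0.47 for *Lepr* to -0.021 for *Sox14*.

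The tissue label was read against fixed markers. The 9 ARC markers, such as *Agrp* and *Pomc*, summed to 1919 to 6386 FPKM in WT and 4515 to 6327 FPKM in Homo, with 7 of the 9 higher in Homo. Of these 3 had an unadjusted p under 0.05, as 5.55% of all genes tested did, and none was called. With the library set fitted, 670 of the 14017 genes tested were at that level, among them 1 ARC marker that was higher and 1 that was lower. Of the ventromedial nucleus markers, whose neurons also carry *Esr1* and *Pgr*, *Nr5a1* and *Fezf1* stayed under 1 FPKM in every library, and the list of 3 summed to 0.693 to 2.21 FPKM in WT and 0.612 to 4.14 FPKM in Homo. The 5 paraventricular markers summed to 8.89 to 1030 FPKM in WT and 15.6 to 572 FPKM in Homo, and of these *Crh* and *Sim1* stayed under 1 FPKM in every library. The 5 markers of microglia were all higher in Homo, with sums of 25.2 to 40.1 FPKM in WT and 37.6 to 68.5 FPKM in Homo, and 2 had an unadjusted p under 0.05 (3 with the library set fitted). The 5 oligodendrocyte and the 5 endothelial markers were also all higher in Homo, none at that level, with sums of 64.5 to 508 and 121 to 363 FPKM for the former and 23.0 to 28.5 and 25.9 to 43.5 FPKM for the latter, in WT and Homo in that order. Of 5 astrocyte markers 4 were higher, none at that level. None of these markers was called, and the part of cell makeup in the values of the members was not tested. The growth hormone transcript *Gh* of the pituitary was over 50 FPKM in WT 3, WT 5 and Homo 7, all of higher detection. Another pituitary marker, *Cga*, was at 50.25 FPKM in WT 3 but 0 in Homo 7. It was at 9.37 FPKM in Homo 4, which had 0 FPKM of *Gh*. With WT 3, WT 5 and Homo 7 left out, only WT 4 and Homo 6 of the higher-detection libraries stayed. The differences of the members were then 0.26 for *Kiss1*, -0.21 for *Tac2*, -0.29 for *Pdyn*, -0.39 for *Tacr3*, -0.46 for *Esr1* and 0.36 for *Pgr*, and none was called.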

How the data were processed

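Laser-captured ARC RNA was amplified across the whole transcriptome and sequenced, 1 library per mouse. The authors deposited 1 table of FPKM values for 38283 genes. The submitters' processing notes name TopHat2 2.0.8, Cufflinks 2.2.1 and GRCm38, and the paper lists parametric and rank tests for its data in general. All 12 columns were matched to mice by their labels. The members and gene lists were chosen with earlier results of these data known.

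Since FPKM are not counts, the log2 of FPKM plus a pseudocount of 1 was used, a scale that understates changes of low genes. A mean of 1 FPKM or more over the 12 libraries was required, which left 14017 genes. The 5 WT and 7 Homo libraries were compared by genotype alone in limma (version 3.58.1, under R 4.3.3), whose moderated variances followed the mean and were robust to outlying genes. The fit was tested on simulated data. Exact permutation tests of single genes and correlations with 100000 permutations used Python 3.11.15. Gene positions are from GENCODE M21. Fragments per value were estimated from FPKM, transcript length less 180 bases and the smallest steps of low values, readable in 7 libraries, so depth is known only roughly. For 1 kb of such length, 1 fragment was worth 0.306 FPKM in Homo 4 and 0.239 FPKM in Homo 5, both of lower detection. In the 5 higher-detection libraries it was worth 0.0825 FPKM (Homo 6) to 0.1225 FPKM (WT 5). By this rough estimate Homo 4 and Homo 5 held fewer fragments. Of the low values examined, 17.7% in Homo 4 and 17.8% in Homo 5 lay on a step. In the higher-detection libraries that share was 17.5% (WT 3) to 34.2% (WT 5). Spearman correlations between libraries, across genes, were 0.762 to 0.854, so none was deposited in duplicate. The library sets were divided at the largest gap in genes above 0. Alternatives covered pseudocount, filters, scaling, library set, replicate number, weights and left-out libraries. Percentile ranks within a library, the libraries with *Gh* left out and the correlations without 1 library were added after the data were seen.

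Genes named in the text were the members, 9 fixed genes around them, the gene with the smallest p in each direction in each list, the 3 genes most like each member, and markers. *Lepr*, *Sox14* and *Golt1a* were named after their values were seen. A few items that this rule names are not reported here, though they stay in the counts.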

Additional observations from a re-analysis of the deposited data

Results flagged for a closer look

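In each genotype, the gap from the highest or lowest library to its neighbour was set against the whole range, for the 6 members in both genotypes. Of the 12 groups looked at, 2 had an outlying library in FPKM by Dixon's criterion at the 95% level. Chance meets it in about 1 of 20 groups if values are normally distributed, which was not checked. The criterion was not applied on the log2 scale, where the top gap is a smaller share of the range. Both were WT 2. Its *Tacr3* value of 5.85 FPKM was separated by 0.731 of the WT range, and its *Esr1* value of 29.5 FPKM by 0.735. WT 2 was also highest of all libraries for *Kiss1*, at 46.4 FPKM, and of the WT libraries for *Tac2*, at 239 FPKM, but not for *Pdyn* or *Pgr*. Without it the Homo minus WT difference was 0.0060 for *Tacr3*, -0.18 for *Esr1* and 0.66 for *Kiss1*, and none was called by limma. The cause was not tested.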

How the results depend on the processing

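Over 155 alternative fits of the 6 members none was called, the smallest limma adjusted p being 0.674, and 137 kept their direction. *Kiss1* kept it in all 26. *Esr1* reached an unadjusted p under 0.05 in 2, without Homo 6 and without Homo 6 and Homo 7. *Tac2* was negative in 11, among them quantile normalization (-0.050), the library set fitted (-0.13), the lower-detection libraries (-0.30), array weights (-0.010), libraries with *Gh* left out (-0.21) and, in percentile points, ranks within the library (-0.20). In the higher-detection libraries the sign turned for *Pdyn* (0.18), *Tacr3* (0.039), *Esr1* (0.37) and *Pgr* (-0.028). With 1 library left out, the differences ran from 0.22 to 0.66 for *Kiss1*, -0.14 to 0.16 for *Tac2*, -0.30 to 0.030 for *Pdyn*, -0.37 to 0.0060 for *Tacr3*, -0.51 to -0.18 for *Esr1* and -0.047 to 0.32 for *Pgr*, and the count of genes called from 1 to 3. The count was 5 in the lower-detection and 19 in the higher-detection libraries, 4 without Homo 6 and Homo 7, and 2 with a replicate block. Deviations of same-numbered libraries from their genotype means had correlations of -0.054 to 0.029. Differently numbered libraries were not set beside them, so this cannot show whether numbers 1 to 5 pair the mice. *Esr1* under the replicate block was at -0.60 (limma adjusted p = 0.723). Under upper-quartile scaling and under quantile normalization, 2 of the 15 sex steroid genes tested had an unadjusted p under 0.05, both higher in Homo. Of all 14017 genes tested, 944 did so under upper-quartile scaling and 920 under quantile normalization. With 1 library left out, r of *Kiss1* with *Tac2* ran from 0.456 to 0.914, of *Tacr3* with *Esr1* from 0.214 to 0.684 and of *Tac2* with *Pgr* from -0.531 to -0.392. A mean filter of 5 FPKM removed *Tacr3*. The causes were not tested. The few mice, the amplification and the unknown depth limit the precision, and the intervals do not show equal levels.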
